A study of Mus musculus with 6 samples.

Results

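The clustered protocadherins are 58 genes of mouse chromosome 18, taken from the 57132 genes of the expression table by their symbols (Pcdha, Pcdhac, Pcdhb, Pcdhga, Pcdhgb or Pcdhgc followed by a number). They comprised 14 genes of the alpha cluster, 22 of the beta cluster and 22 of the gamma cluster. Their RNA was measured in tdTomato-positive cells that were FAC-sorted from embryonic mouse cortex at E14.5, to ask what the loss of the DNA methyltransferase DNMT1 changes in the transcriptome of somatostatin (SST) interneurons. There were 3 libraries of Dnmt1 KO cells (Sst-Cre/tdTomato with both Dnmt1 alleles floxed) and 3 libraries of control cells (Sst-Cre/tdTomato alone). Cre recombinase from the Sst locus and the tdTomato reporter were therefore carried by both groups, on a C57BL/6J background, and the sexes of the embryos were not distinguished. Cre expression follows Sst, so that the deletion was directed to Sst-expressing cells. Cells of several embryos were pooled per genotype, and although the 3 samples were processed separately, no source says that they came from different pools. The p-values below therefore speak only of the scatter among these libraries, part or all of which may be technical.

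Clustered protocadherins are cadherin-superfamily adhesion proteins of the neuronal surface. They assemble in combinations that bind the same combination on another membrane, and this gives neurons a molecular identity that serves self-recognition and dendrite spacing. Each variable exon has its own promoter. A neuron chooses a few alternate promoters at random, a choice known to involve CTCF, cohesin and methylation of promoter DNA, whereas the C-type members at the ends of the alpha and gamma clusters (Pcdhac1, Pcdhac2, Pcdhgc3, Pcdhgc4 and Pcdhgc5) are used more uniformly. In mouse cortical interneurons the gamma cluster is required for survival, and Pcdhgc4 is the member most closely linked to it.

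On GRCm39 the alpha genes lie at chr18:37063237-37320716, the beta genes at chr18:37397991-37657532 and the gamma genes at chr18:37794846-37975014, all on the plus strand. In the GENCODE M39 annotation the longest transcript of each alpha gene joins its own first exon (median of 2490 bases not shared with other members) to constant exons of 2860 to 2866 bases that all 14 share. Gamma genes are built in the same way, with a median of 2210 shared bases and 2617 of their own. The exception is the longest transcript of Pcdhgc5, which shares 410 bases, although other transcripts of that gene share up to 2210. The longest transcript of each of the 22 beta genes has a single exon, and 5 of these genes also have a spliced transcript. Exons of different beta genes do not overlap, except for 455 bases shared by Pcdhb21 and Pcdhb22. Reads from the constant exons fit every member of an alpha or gamma cluster, and Salmon assigned them by estimate. The level of a single alpha or gamma member depends on that estimate, whose error was not measured, and members of 1 cluster are not independent measurements. Beta members have no such constant exons, but likeness of sequence between them was not examined, so their dependence on the estimate was not measured. The median standard error of their log2 difference was larger (0.33, against 0.16 for alpha and 0.12 for gamma members). The 300 bases around each start (250 before and 50 after) held a median of 6.5 CpG dinucleotides for alpha, 5 for beta and 7 for gamma members, against 8 for all protein-coding genes. Pcdhgc3 with 22 and Pcdhac1 with 17 had the most.

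The libraries held between 7154043 and 10089981 reads, and the values below are the authors' normalized counts (reads divided by 1 size factor per library). Tests were made for genes that averaged at least 10 normalized counts, which 14126 genes and 55 of the 58 members passed. The first principal component (57.5% of the variance) separated the genotypes and the second (13.6%) set control replicate 1 apart. Of all genes tested, 7.64% were higher and 11.6% lower in Dnmt1 KO (limma, adjusted p under 0.05), and the marker counts below use the same test. Of the 11 markers of the SST interneuron lineage, 10 were higher in Dnmt1 KO (summed level 27382 to 29090, against 20547 to 21320 normalized counts in control), with a log2 difference of 0.14 for Sst itself (adjusted p = 0.134). Of the 8 radial glia markers 5 were lower and 1, Sox2, was higher (summed level 5834 to 5987, against 7992 to 8618). Of the 7 markers of the excitatory lineage 2 were lower and 1 higher (2147 to 2188, against 2155 to 2318). All 6 diencephalic markers were lower, their summed level being 511 to 615 normalized counts in Dnmt1 KO and 1979 to 2131 in control. Lhx2 held most of the Dnmt1 KO sum (mean 438, against 568 in control). Tcf7l2 held most of the control sum (mean 48.9 in Dnmt1 KO, against 1130 in control). Otp was at 0 in every Dnmt1 KO library. Of the 5 striatal projection neuron markers tested, 3 were lower (summed level 2614 to 2732, against 2790 to 3150). Bcl11b, which did not pass, held most of that sum (mean 2548 in Dnmt1 KO, 2478 in control). The 3 lower markers were Isl1 (mean 4.86, against 89.9), Ebf1 (17.3, against 129) and Foxp2 (67.5, against 229). Of the 7 markers of blood, vessels and microglia 1, Hbb-bt, was lower (444 to 508, against 499.5 to 527). The part of these markers in the protocadherin values was not tested. In sorted bulk RNA, fewer cells of a type and less RNA per cell cannot be told apart.

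The gamma genes were the most abundant members and the beta genes the least. Per kilobase of transcript and averaged over the 6 libraries, the median member had 39.8 normalized counts in the gamma cluster, 17.0 in the alpha cluster and 5.93 among the 19 beta genes tested, while the median of all genes tested was 35.8. The ranges of beta and gamma members did not meet, since the highest beta gene, Pcdhb20, had 14.3 per kilobase and the lowest gamma gene, Pcdhgb8, had 22.4. Pcdhgc3 stood above all other members with 206 per kilobase, followed by Pcdhgc4 with 89.0 and Pcdhgb6 with 79.8. Among alpha genes Pcdhac2 (29.2), Pcdha2 (25.4) and Pcdha6 (25.3) were highest. The other 3 beta genes were too low to test. Pcdhb1 had a single read in 1 Dnmt1 KO library and none elsewhere. In the libraries without a read, this allows up to 2.22 to 3.70 normalized counts. Pcdhb12 averaged 9.30 ± 3.81 normalized counts in Dnmt1 KO, against 6.28 ± 2.76 in control. Pcdhb13 averaged 5.61 ± 1.35 in Dnmt1 KO, against 3.32 ± 3.31 in control (± SD over 3 libraries).

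**Figure D1:**
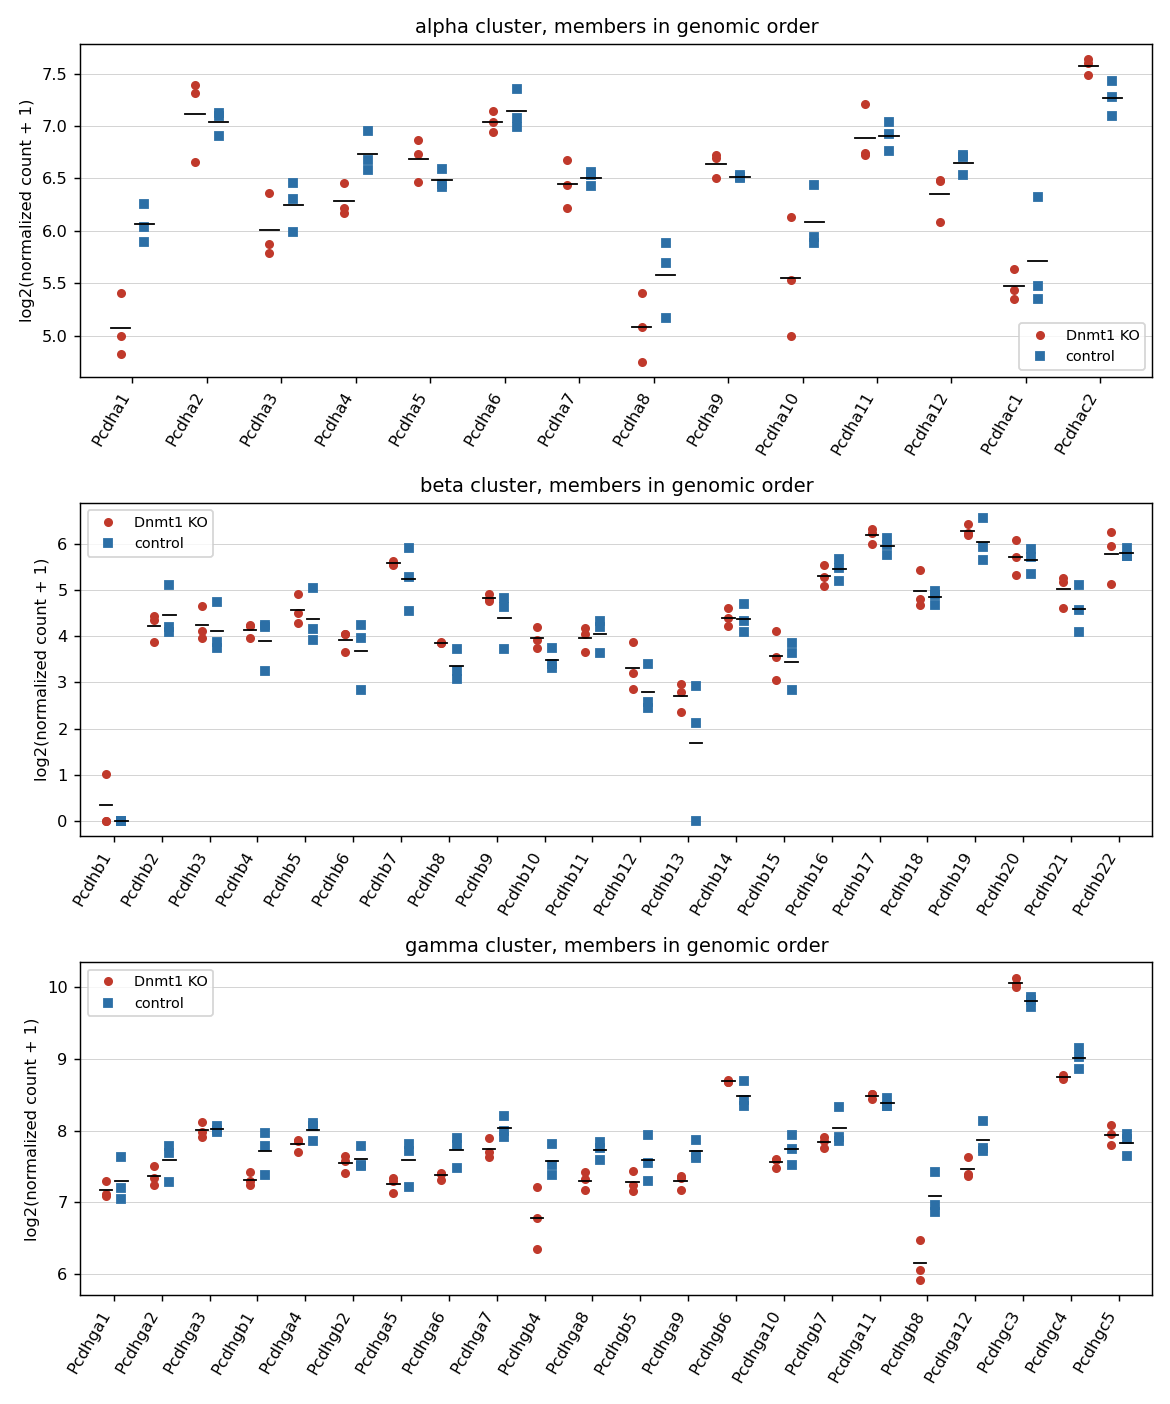
Level of each of the 58 members in each library, as log2(normalized count + 1), with members of the alpha, beta and gamma clusters in genomic order, Dnmt1 KO (circles) left of control (squares) and a bar at each group's mean. The 3 Dnmt1 KO libraries lie below the 3 control libraries for Pcdha1, Pcdhgb4 and Pcdhgb8 and above them for Pcdhgc3.

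Loss of Dnmt1 was accompanied by a change in 7 of the 55 members tested. Pcdhgc3 rose, Pcdha1, Pcdhgb4, Pcdhgb8, Pcdhga8, Pcdhga9 and Pcdhga12 fell, and 48 did not pass the test (limma with Benjamini-Hochberg adjustment over all genes tested, adjusted p under 0.05). Changes are given as log2 differences of Dnmt1 KO minus control on the scale log2(normalized count + 1), with ± for the standard error of the fit. The share of all genes called higher was 7.64% and the share called lower was 11.6%, so the 6 of 55 members called lower (10.9%) were close to the background and the 1 of 55 called higher (1.82%) was below it. Counted by libraries that do not overlap, 11 of 55 members had all Dnmt1 KO libraries below all control libraries, against 18.1% of all genes, and 4 of 55 (Pcdhac2, Pcdhb8, Pcdhb10 and Pcdhgc3) had them all above, against 18.6% of all genes. The recovered reads, which carry the same Salmon assignment, gave much the same members. edgeR called the same 7 and added Pcdhgc4 to those lower (backgrounds of 7.43% higher and 11.8% lower), and DESeq2 left out Pcdhga12 (backgrounds of 5.33% higher and 11.0% lower).

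The calls rested on few libraries. Without Dnmt1 KO replicate 1 the same 7 members were called, 1 higher and 6 lower (against 5.47% and 10.1% of all genes). Without Dnmt1 KO replicate 2 no member was higher and 2 were lower (against 4.03% and 9.0% of all genes), and without Dnmt1 KO replicate 3 the counts were 0 and 3 (against 3.74% and 8.59%). Without control replicate 1 they were 2 and 3 (against 6.45% and 10.2%), without control replicate 2 they were 1 and 10 (against 6.89% and 10.9%), and without control replicate 3 they were 0 and 5 (against 5.27% and 9.22%). Pcdhgb8 was called under all 19 alternatives and Pcdha1 under all 18 in which it was tested. Scaling by total reads moved the median of all genes to 0.27 on the log2 scale, against 0.02 as deposited, and made 7 members higher (12.7%, against 35.7% of all genes in that setting) and 3 lower (5.45%, against 7.52%). Rn18s-rs5, the most abundant gene of the table, took 7.49 to 8.23% of the counts in Dnmt1 KO libraries and 8.25 to 12.4% in control libraries.

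**Figure D2:**
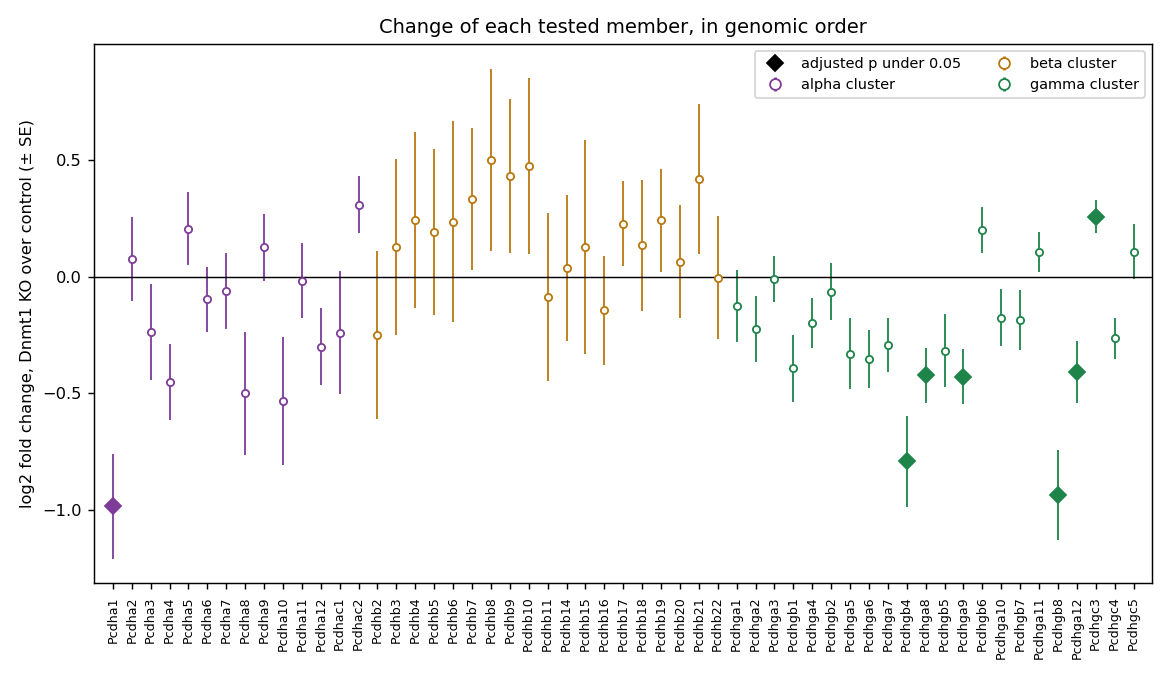
Log2 fold change of Dnmt1 KO over control for the 55 members tested, in genomic order, with standard errors; filled diamonds mark the 7 members with an adjusted p under 0.05 (limma). Beta members lie mostly above 0 (15 of 19) with wide errors and gamma members mostly below 0 (18 of 22, or 11 of 22 when scaled by total reads).

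The largest decreases were found for alternate members of the alpha and gamma clusters, proteins that a given neuron uses in its own combination. Pcdhgb8, the lowest gamma member per kilobase, had 87.8, 59.0 and 65.1 normalized counts in the Dnmt1 KO libraries, against 170, 115 and 124 in the control libraries. The groups did not overlap, with control replicate 1 the highest library. On the log2 scale Dnmt1 KO minus control was -0.94 ± 0.19 (difference ± SE, limma, adjusted p = 0.00426). Pcdha1, the first gene of the alpha cluster, had 41.3, 31.0 and 27.4 normalized counts in Dnmt1 KO, against 75.3, 58.7 and 64.6 in control. Each Dnmt1 KO library was below each control library, and the log2 difference came to -0.99 ± 0.23 (adjusted p = 0.00827). Pcdha1 took 2.65 ± 0.439% of the summed alpha counts in Dnmt1 KO, against 4.97 ± 0.547% in control (± SD, n = 3), a share that does not depend on the scaling of the libraries.

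Pcdhgb4 had 148, 80.3 and 109 normalized counts in Dnmt1 KO, against 225, 183 and 166 in control. It was lower in 3 of 3 Dnmt1 KO libraries but varied within them, and differed by -0.79 ± 0.20 on the log2 scale (adjusted p = 0.0128). Without Dnmt1 KO replicate 2, the lowest library, the change was -0.58 (adjusted p = 0.0545).

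Smaller decreases were shared by 3 gamma A members. Pcdhga8 had 170, 142 and 158 normalized counts in Dnmt1 KO, against 227, 191 and 215 in control (log2 difference -0.42 ± 0.12, adjusted p = 0.0254). Pcdhga9 had 164, 142 and 161 in Dnmt1 KO, against 233, 202 and 196 in control (-0.43 ± 0.12, adjusted p = 0.0232). Pcdhga12 had 197, 166 and 164 in Dnmt1 KO, against 280, 216 and 209 in control (-0.41 ± 0.13, adjusted p = 0.0479). In all 3 genes the groups did not overlap and control replicate 1 was the highest library. Without that library none of them passed the test, with adjusted p-values of 0.0764 for Pcdhga8, 0.0781 for Pcdhga9 and 0.166 for Pcdhga12. They were also lost without Dnmt1 KO replicate 2 (0.102, 0.0935 and 0.147) and without Dnmt1 KO replicate 3 (0.0739, 0.0595 and 0.162), and Pcdhga8 was lost without control replicate 3 (0.0701). When scaled by total reads the 3 genes had log2 fold changes between -0.17 and -0.15 and were not called.

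Pcdhgc3, a C-type gamma protein known to bind the Wnt regulator Axin1, was the only member that rose. It had 1024, 1126 and 1059 normalized counts in Dnmt1 KO, against 905, 934 and 848 in control. The lowest Dnmt1 KO library was above the highest control library. The log2 difference was 0.26 ± 0.07 (adjusted p = 0.0227), which is 1.19 times the control level. The call was lost when any of 3 libraries was left out, with adjusted p-values of 0.0994 for Dnmt1 KO replicate 2, 0.0743 for Dnmt1 KO replicate 3 and 0.0907 for control replicate 3, and differences between 0.22 and 0.26. Its share of the summed gamma counts was 18.7, 20.8 and 19.8% in Dnmt1 KO and 13.7, 17.1 and 14.7% in control, again without overlap. For Axin1 itself the log2 difference was -0.03 (adjusted p = 0.856).

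The other C-type members did not pass the test. Pcdhgc4, the gamma member tied to interneuron survival in mouse, had 421, 439 and 429 normalized counts in Dnmt1 KO, against 567, 465 and 522 in control (log2 difference -0.26 ± 0.09, adjusted p = 0.0532). Its groups did not overlap, and 5 of 19 alternatives called it lower, edgeR among them (adjusted p = 0.0487). Pcdhac2 had 198, 194 and 178 in Dnmt1 KO and 136, 154 and 172 in control (0.31 ± 0.12, adjusted p = 0.101). All its Dnmt1 KO libraries were above control, and it took 15.3 ± 1.62% of the alpha counts in Dnmt1 KO, against 11.6 ± 1.28% in control (± SD, n = 3). Pcdhgc5 had 269, 246 and 221 in Dnmt1 KO and 236, 199.6 and 247 in control (0.11 ± 0.12, adjusted p = 0.571). Pcdhac1 had 42.3, 39.7 and 48.9 in Dnmt1 KO and 79.0, 39.7 and 43.4 in control (-0.24 ± 0.26, adjusted p = 0.573). In both of these genes the groups overlapped, and for Pcdhac1 a single library, control replicate 1, held the high value. Together the 5 C-type members made up 26.3, 28.5 and 26.7% of all clustered protocadherin counts in Dnmt1 KO, against 22.8, 24.8 and 23.5% in control. With control replicate 2 at 24.8%, this share was higher in each of the 3 Dnmt1 KO libraries. It is not a shared trait of the 5 genes, of which 3 had a positive and 2 a negative change. Pcdhgc3 alone held a mean of 1070 of the 1979 C-type counts in Dnmt1 KO, and 895 of 1849 in control.

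Within the gamma cluster, 18 of 22 members had a negative log2 fold change and the median was -0.24, against 0.02 for all genes tested. Of all 14126 genes tested, 6742 were negative and 7384 positive. Gamma members share reads from constant exons, so their signs are not independent. Of the 19 gamma A and B members, 17 were negative and 5 fell, against 11.6% of all genes called lower, but only 2 of these 5 (Pcdhgb4 and Pcdhgb8) were still called without control replicate 1. None rose by limma, edgeR or DESeq2, nor at an unadjusted p under 0.05. The direction depends on the scaling, since 10 of these 19 were negative when scaled by total reads, although 17 of 19 were still below the median of all genes in that setting. Control replicate 1 weighed on these values, being the highest of all 6 libraries in 16 of the 19 genes. Without it, 15 of 19 were negative and their median was -0.15, against -0.29 with all libraries. The 2 with a positive change were the most abundant gamma A and B genes. Pcdhgb6 had 408, 416 and 409 normalized counts in Dnmt1 KO, against 411, 324 and 343 in control (0.20 ± 0.10, adjusted p = 0.180), and without control replicate 1 it was called higher (0.30, adjusted p = 0.0352). Pcdhga11 had 365, 364 and 346 in Dnmt1 KO and 351, 324 and 325 in control (0.10 ± 0.09, adjusted p = 0.439). As shares of the gamma sum both were higher in 3 of 3 Dnmt1 KO libraries, Pcdhgb6 with 7.59 ± 0.125% in Dnmt1 KO against 6.05 ± 0.171% in control, and Pcdhga11 with 6.61 ± 0.135% in Dnmt1 KO against 5.64 ± 0.316% in control (± SD, n = 3).

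The remaining gamma A and B members did not pass. Pcdhga6 had 158, 167 and 169 normalized counts in Dnmt1 KO, against 238, 178 and 221 in control (-0.35 ± 0.13, adjusted p = 0.0688). Pcdhga7 had 208, 196 and 236 in Dnmt1 KO and 293, 240 and 253 in control (-0.29 ± 0.11, adjusted p = 0.0928). Both were without overlap, whereas the other 10 (Pcdhga1 to Pcdhga5, Pcdhga10, Pcdhgb1, Pcdhgb2, Pcdhgb5 and Pcdhgb7) overlapped, with log2 fold changes between -0.39 for Pcdhgb1 and -0.01 for Pcdhga3.

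In the alpha cluster 10 of 14 members were negative, with a median of -0.17, and Pcdha1 was the only member called. No alpha member was called higher by limma, edgeR or DESeq2. At an unadjusted p under 0.05 (limma), 1 was higher, Pcdhac2, and 2 were lower. When scaled by total reads 5 of 14 were negative, while 10 of 14 were below the median of all genes. Pcdha4 had 86.7, 73.5 and 71.1 normalized counts in Dnmt1 KO, against 101, 94.6 and 123 in control (-0.45 ± 0.16, adjusted p = 0.0723). Its groups did not overlap. Pcdha12 also showed no overlap, with 88.8, 66.8 and 88.1 in Dnmt1 KO and 91.4, 103 and 105 in control (-0.30 ± 0.17, adjusted p = 0.231). Pcdha10 (-0.54 ± 0.28, adjusted p = 0.202) and Pcdha8 (-0.50 ± 0.26, adjusted p = 0.215) had larger differences with more scatter and overlapping groups. The 5 other alternate members, Pcdha3, Pcdha5, Pcdha7, Pcdha9 and Pcdha11, lay between -0.24 for Pcdha3 and 0.21 for Pcdha5. Of the most abundant alternate members, Pcdha2 had 158, 99.7 and 167 in Dnmt1 KO and 136, 119 and 138 in control (0.08 ± 0.18, adjusted p = 0.810), and Pcdha6 had 140, 122 and 130 in Dnmt1 KO and 163, 126 and 134 in control (-0.10 ± 0.14, adjusted p = 0.669). Both overlapped.

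The beta cluster, whose genes are counted without shared constant exons, held no call in either direction by limma, edgeR or DESeq2, and no member with an unadjusted p under 0.05. Of its 19 tested members 15 had a positive change, the median change being 0.19 on the log2 scale and the median standard error 0.33. The median was 0.05 and 11 of 19 were positive without control replicate 1, the lowest of the 6 libraries in 7 of these genes. Its 22 members together had 397 to 833 reads per library, against 1090 to 1705 for the alpha and 5170 to 7242 for the gamma cluster. Pcdhb19, the gene with the highest count, had 84.7, 74.5 and 71.8 normalized counts in Dnmt1 KO, against 49.4, 59.6 and 92.4 in control (0.24 ± 0.22, adjusted p = 0.492). Pcdhb17 had 78.5, 73.5 and 62.9 in Dnmt1 KO and 53.1, 69.1 and 61.3 in control (0.23 ± 0.18, adjusted p = 0.430). Pcdhb22 had 34.1, 61.0 and 75.5 in Dnmt1 KO and 51.9, 58.7 and 52.3 in control (-0.01 ± 0.26, adjusted p = 0.992). The groups overlapped in all 3. The other tested beta genes had differences between -0.25 for Pcdhb2 and 0.50 for Pcdhb8. Only Pcdhb8 and Pcdhb10 had Dnmt1 KO libraries all above control among the beta genes, Pcdhb8 with 13.4 ± 0.111 normalized counts in Dnmt1 KO against 9.39 ± 2.54 in control (adjusted p = 0.412) and Pcdhb10 with 14.6 ± 2.56 in Dnmt1 KO against 10.2 ± 1.85 in control (adjusted p = 0.420).

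Summed over a cluster, the levels of both genotypes overlapped in all 3 clusters. The alpha sum was 1362, 1130 and 1262 normalized counts in Dnmt1 KO, against 1346, 1243 and 1407 in control. The beta sum was 589, 635 and 617 in Dnmt1 KO and 490.2, 545 and 617 in control. The gamma sum was 5476, 5413 and 5361 in Dnmt1 KO and 6585, 5446 and 5758 in control, so that 2 of the 3 Dnmt1 KO sums were below every control sum and 1 was not. The log2 ratios of Dnmt1 KO over control were -0.09 for alpha, 0.16 for beta and -0.13 for gamma, and scaling by total reads turned alpha to 0.17 and gamma to 0.13. Without Pcdhgc3 the gamma sum was 4452, 4287 and 4302 in Dnmt1 KO, against 5680 (control replicate 1), 4513 and 4910 in control, and these libraries did not overlap in the deposited scaling. The sum of the gamma A and B members did not overlap either, with 3762, 3602 and 3652 in Dnmt1 KO, against 4877, 3848 and 4141 in control. Pcdhgc3 was the only member called higher in these data, and 5 gamma A and B members were called lower. The sums without Pcdhgc3 and of the gamma A and B members therefore repeat those calls and give no separate support. No test was made on sums.

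**Figure D3:**
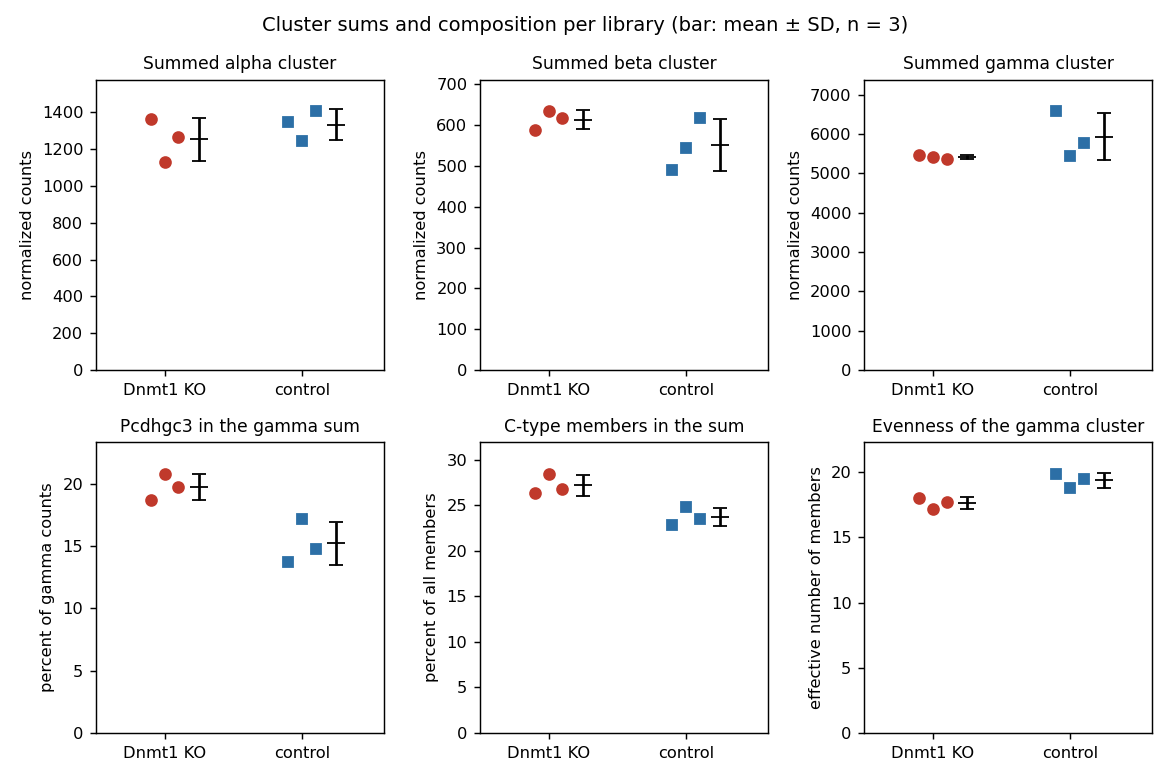
Summed normalized counts of the alpha, beta and gamma clusters (upper row) and, in the lower row, the share of Pcdhgc3 in the gamma sum, the share of the 5 C-type members in the sum of all members, and the effective number of gamma members, per library with mean ± SD (n = 3), Dnmt1 KO left of control. The cluster sums overlap between genotypes, whereas the lower panels show no overlap, with Pcdhgc3 at 19.8% of the gamma sum in Dnmt1 KO and 15.2% in control. Pcdhgc3 also enters the C-type share and the effective number.

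The composition within a cluster can be expressed as the effective number of members, which is the exponential of the Shannon entropy of their shares and equals the number of members when all are equally abundant. In the gamma cluster it was 18.0, 17.1 and 17.7 in Dnmt1 KO and 19.9, 18.8 and 19.5 in control. In the alpha cluster it was 12.5, 12.2 and 12.3 in Dnmt1 KO and 13.4, 13.0 and 13.2 in control. Both clusters were thus less even in every Dnmt1 KO library. The effective number is computed from the same member shares as above. It therefore repeats the changes of single members, such as Pcdhgc3, Pcdha1 and Pcdhac2, and gives no separate support. In the beta cluster the order was the reverse, with 16.5, 16.7 and 16.9 in Dnmt1 KO and 16.4, 16.2 and 16.1 in control. The groups nearly met there, at 16.52 in Dnmt1 KO replicate 1 and 16.43 in control replicate 1. The beta members together had only 397 to 833 reads per library, and the effect of depth on this number was not tested. These values are mixtures over many cells and do not say how many promoters a single cell used.

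The differences went along with abundance in the alpha and gamma clusters. Across members, the mean level on the log2 scale and the log2 fold change had a Pearson r of 0.75 and a Spearman rho of 0.78 among the 14 alpha genes and an r of 0.72 and a rho of 0.66 among the 22 gamma genes. Among the 19 beta genes they were -0.17 and -0.13. These are descriptions across genes of the same 6 libraries, and members of 1 cluster share reads from constant exons. The mean level also includes the Dnmt1 KO values that enter the fold change. The relation was not computed over all genes, so it is not shown to be particular to these clusters. The median change of all genes was 0.02 as tested and 0.04 with a minimum mean of 50. The place of a gene within its cluster showed no such relation, with a rho between order and change of 0.20 for alpha, -0.09 for beta and 0.09 for gamma.

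**Figure D4:**
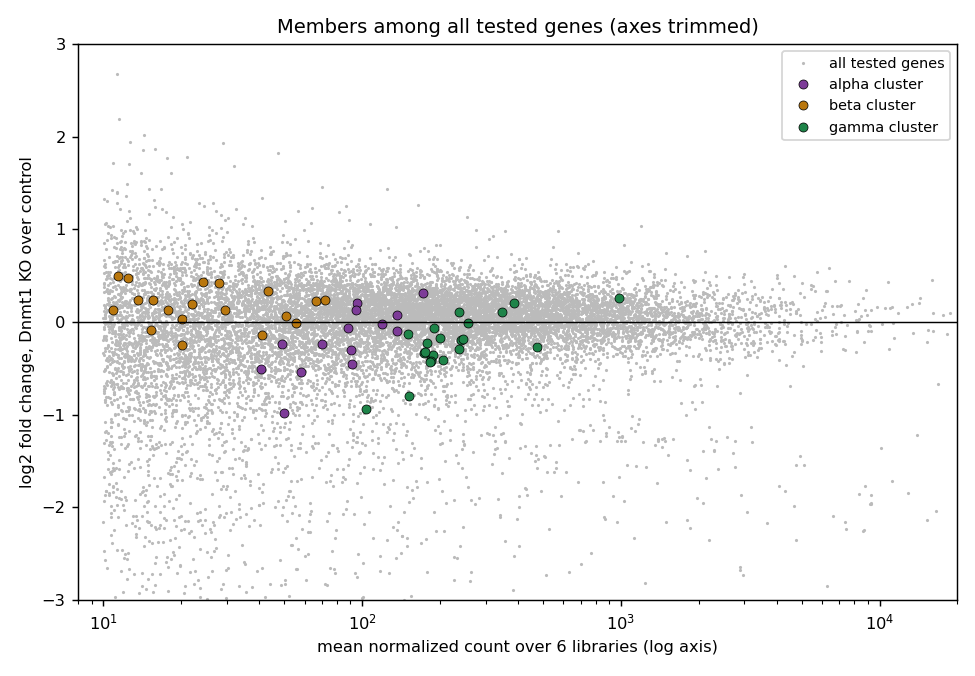
Mean normalized count over the 6 libraries (log axis) against the log2 fold change of Dnmt1 KO over control for all 14126 genes tested (grey, axes trimmed) and for the 55 members tested. The alpha and gamma members of lower level, such as Pcdha1 (-0.99) and Pcdhgb8 (-0.94), lie lowest, and the most abundant member, Pcdhgc3, lies above 0 at 0.26.

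Of 34 other gene models annotated inside the 3 clusters, 29 were in the table and 5 could be tested, and none was called by limma, edgeR or DESeq2 or had an unadjusted p under 0.05. They were Taf7, a subunit of the general transcription factor TFIID (log2 difference 0.16 ± 0.12, adjusted p = 0.375), Pcdha4b, whose annotated model runs from the alpha into the gamma cluster and overlaps members there (-0.38 ± 0.32, adjusted p = 0.448), and the long noncoding RNAs BC037039 (0.57 ± 0.31, adjusted p = 0.224), Gm26672 (-0.09 ± 0.36, adjusted p = 0.890) and Gm38182 (-0.18 ± 0.14, adjusted p = 0.402). Gm38182 averaged 161 and Taf7 54.8 normalized counts per kilobase, both above the median of all genes, and the other 3 averaged 6.47 to 12.2. Outside the clusters, the nearest tested neighbour before the alpha genes, Zmat2, rose, with 878, 768 and 837 normalized counts in Dnmt1 KO, against 680.3, 700.1 and 652 in control (0.29 ± 0.08, adjusted p = 0.0178). The nearest after the gamma genes, Diaph1, an actin-nucleating formin, had 515, 488 and 503 in Dnmt1 KO and 619, 515 and 541 in control (-0.15 ± 0.09, adjusted p = 0.256).

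Of 25 genes known to act on protocadherin promoters or on DNA methylation, 24 were tested, 4 fell and none rose by limma, edgeR or DESeq2. At an unadjusted p under 0.05 (limma), 5 were higher and 7 lower. Of all genes tested 11.6% fell and 7.64% rose. Uhrf1, which brings DNMT1 to hemimethylated DNA, had 315, 331 and 305 normalized counts in Dnmt1 KO, against 656, 526 and 592 in control (-0.89 ± 0.09, adjusted p = 2.32e-05). Dnmt3a, a de novo methyltransferase, had 1170, 1238 and 1197 in Dnmt1 KO and 1587, 1376 and 1514 in control (-0.31 ± 0.07, adjusted p = 0.00763). Neither gene showed an overlap. The cohesin regulator Pds5b fell by 0.31 ± 0.09 (adjusted p = 0.0363). Dnmt1 had 2411, 2243 and 2255 in Dnmt1 KO and 3025, 2539 and 2741 in control (-0.26 ± 0.07, adjusted p = 0.0218). A count over the whole gene does not check the floxed part, since the rest of the transcript can still be read. Scaled by total reads, Dnmt3a, Pds5b and Dnmt1 had changes of -0.05, -0.05 and 0.00 and were not called. Leaving out Dnmt1 KO replicate 2, Dnmt1 KO replicate 3 or control replicate 1 ended the calls of Dnmt1 (adjusted p of 0.0852, 0.0932 and 0.0576 in that order) and of Pds5b (0.149, 0.114 and 0.09997), and Pds5b was also lost without control replicate 3 (0.124). Uhrf1 passed under all 19 alternatives.

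The factors most directly tied to protocadherin promoters did not pass. Ctcf, whose product joins chosen promoters to their enhancers, had 665, 595 and 646 normalized counts in Dnmt1 KO, against 541, 627 and 623 in control (0.09, adjusted p = 0.489). Smchd1, a repressor of the clusters in mouse, had 567, 583 and 594 in Dnmt1 KO and 542, 574 and 641 in control (-0.01, adjusted p = 0.961), and 0.25 (adjusted p = 0.0227) when scaled by total reads. Dnmt3b, the enzyme that methylates protocadherin promoters in the mouse embryo, had 14.46, 59.0 and 42.2 in Dnmt1 KO and 66.7, 50.1 and 60.1 in control (-0.80, adjusted p = 0.181). Its Dnmt1 KO libraries were scattered and overlapped with control, and Dnmt3l was at 0 in all 6 libraries.

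Of 19 genes whose products act with or downstream of the clustered protocadherins, 18 were tested, 2 rose and 1 fell. Of all genes tested 7.64% rose and 11.6% fell, and 18 genes are too few to set against these shares. Adam10, a protease that sheds protocadherin ectodomains, had 566, 588 and 594 normalized counts in Dnmt1 KO, against 496, 478 and 515 in control (0.23 ± 0.08, adjusted p = 0.0464). Wasf1, a subunit of the actin-regulating WAVE complex, had 1006, 993 and 1003 in Dnmt1 KO and 840, 838 and 912 in control (0.21 ± 0.07, adjusted p = 0.0420). In both genes the groups did not overlap, but DESeq2 called neither, and without single libraries at most 1 partner was called higher. Nlgn1, a synaptic adhesion protein, had 124, 128 and 119 in Dnmt1 KO and 214, 217 and 206 in control (-0.77 ± 0.11, adjusted p = 0.000328) and was called under all 19 alternatives.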

How the data were processed

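The authors trimmed and aligned the reads with Trim Galore 0.6.10 and STAR 2.7.11b to GRCm39, counted genes with Salmon 1.10.3 and normalized them with DESeq2 1.42.1 in R 4.3.3, as the submitters' processing notes state; the study's methods give other versions. The signal per gene is that of the deposited normalized table, in which the authors divided each count by 1 size factor per library. The deposited table of fold changes and p-values and the Gene Ontology and enrichment score tables hold the authors' own comparisons and were not used. The sources used here do not state whether molecular identifiers were counted or which annotation release was taken.

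All values were whole multiples of 1 step per library (100% of values, tolerance 0.001), so whole counts per gene could be recovered. These counts, called reads here, follow Salmon's assignment and are estimates for genes that share exons. The 57132 genes summed to 7154043 to 10089981 reads. A count of 0 allows 3 reads, or 2.22 to 3.70 normalized counts, for counting error only. Groups and replicate numbers came from the sample titles, since the genotype label is the same for all 6 samples. Values were fitted as log2(normalized count + 1) with limma 3.58.1 (mean-variance trend, group as the only term, two-sided, Benjamini-Hochberg adjustment over 14126 genes with a mean of at least 10) in R 4.3.3. Genes with an adjusted p under 0.05 were called. Fold changes on this scale understate changes of low genes. The fit was tested on simulated data. On the recovered reads edgeR called 1050 genes higher and 1662 lower, and DESeq2 753 and 1556. Alternatives were pseudocounts of 0.5 and 5, no filter, a minimum of 50, total reads, TMM factors, quantile normalization, size factors from protein-coding genes, edgeR 4.0.16 and DESeq2 1.42.0 on the recovered reads, limma-voom, a robust fit, a replicate block, and each library left out. Positions, transcript lengths and CpG counts came from GENCODE M39 on GRCm39. The members, lists and tests were chosen with earlier results of these data known. All tested members could be given, with full values for called members, the 3 most abundant of each cluster and the C-type members. Of each further list up to 6 called genes with the smallest p could be named, besides Dnmt1, Dnmt3b, Ctcf, Smchd1, Sst, other gene models inside the clusters and the nearest tested neighbours. Axin1, Dnmt3l, Bcl11b and Rn18s-rs5 were named outside this rule after their values were seen.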

Additional observations from a re-analysis of the deposited data

How the results depend on the processing

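Pcdhgb8 was called under 19 of 19 alternatives, Pcdha1 under 18 of 18, Pcdhgb4 under 18 of 19, Pcdhgc3 under 16, Pcdhga9 under 15, Pcdhga8 under 14 and Pcdhga12 under 12. With total reads, 7 members were higher and 3 lower, 12 promoter regulators were higher and 1 lower, 10 partners were higher, the summed alpha, beta and gamma clusters had log2 ratios of 0.17, 0.42 and 0.13, and Smchd1 turned to 0.25. In that setting 5046 of all genes were higher and 1062 lower, against 1079 and 1638 as deposited. Quantile normalization made 1452 higher and 1369 lower. With quantile normalization 5 regulators were higher. No partner was called higher with no filter, with size factors from protein-coding genes or with DESeq2. Leaving out each library in turn gave 0 to 2 members higher and 2 to 10 lower, 0 to 3 regulators higher and 2 to 4 lower, and 0 to 1 partners higher. All genes called higher numbered 528 (without Dnmt1 KO replicate 3) to 973 (without control replicate 2) when single libraries were left out. Replicate numbers did not pair the libraries, since same-numbered deviations correlated at -0.02, 0.06 and -0.03. With the replicate block the same 7 members were called, 1 higher and 6 lower, and 0 partners were higher instead of 2. The cause of these shifts was not tested. In the beta cluster 3 genes could not be tested, and the lowest count of a tested gene in a library was 5 reads.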
